A study of Homo sapiens with 4 samples.

Results

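The 10 genes described here encode the readout and tuning parts of the Notch pathway: the HES and HEY transcriptional targets HEY1, HEY2, HEYL, HES1 and HES4, the target and feedback inhibitor NRARP, the 3 fringe glycosyltransferases LFNG, MFNG and RFNG, and the DNA-binding factor RBPJ. They were taken by name, and all 10 were found among the 19912 genes of the count table. The study compared RNA-seq libraries of GFI1-KO cells (genotype GFI1KO, 2 libraries) with libraries of WT cells (2 libraries). All 4 came from endothelial cells positive for a GATA2/eGFP reporter, derived from H1, an established human embryonic stem cell line, so both genotypes share the line and the reporter. GFI1 is a transcriptional repressor known for its part in the transition of endothelium into blood, and the libraries address what its loss does to endothelial gene expression. No treatment or time point is named for either group, and the labels say neither which part of GFI1 was altered nor whether the knockout line is 1 clone. Nor do they state that replicates are independent cultures; the p-values below therefore reflect spread among these libraries only, which may be technical.

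In Notch signalling, a ligand on one cell causes cleavage of a Notch receptor on its neighbour. The released intracellular domain joins RBPJ and Mastermind-like coactivators on DNA and switches on targets, among which the HES and HEY genes encode basic helix-loop-helix repressors and NRARP a small ankyrin-repeat protein that dampens the same complex. Fringes extend the O-fucose sugars of the receptor in the Golgi and so shift which ligands it answers to. In endothelium the pathway is known for arterial identity and for restraint of sprouting, and in mouse embryos it is needed for the emergence of blood stem cells from arterial endothelium.

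Promoters show how differently the RBPJ core motif is placed among the targets. RefSeq windows on GRCh38.p14 ran from 250 bases before to 50 after a start site. None was matched for HEY1 or MFNG, so neither was searched for motifs. Windows were matched by symbol for the other 8 of the 10 genes. Those of HES1, HEY2 and NRARP are printed because their RNA behaved in 3 ways in these libraries: HES1 differed most within a genotype, HEY2 had overlapping genotypes, and NRARP had separate ones. Each is read 5′ to 3′ on the gene's own strand, and capitals mark the RBPJ core, TGGGAA on either strand. The windows are chr3:194135898-194136197 (plus strand) for HES1, chr6:125749382-125749681 (plus strand) for HEY2 and chr9:137302222-137302521 (minus strand) for NRARP.
HES1: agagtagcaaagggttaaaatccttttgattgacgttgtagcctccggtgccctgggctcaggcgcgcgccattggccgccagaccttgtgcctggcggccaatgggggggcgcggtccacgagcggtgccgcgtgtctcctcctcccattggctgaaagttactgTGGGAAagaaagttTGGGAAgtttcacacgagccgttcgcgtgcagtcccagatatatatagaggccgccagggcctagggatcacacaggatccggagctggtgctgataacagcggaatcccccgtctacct
HEY2: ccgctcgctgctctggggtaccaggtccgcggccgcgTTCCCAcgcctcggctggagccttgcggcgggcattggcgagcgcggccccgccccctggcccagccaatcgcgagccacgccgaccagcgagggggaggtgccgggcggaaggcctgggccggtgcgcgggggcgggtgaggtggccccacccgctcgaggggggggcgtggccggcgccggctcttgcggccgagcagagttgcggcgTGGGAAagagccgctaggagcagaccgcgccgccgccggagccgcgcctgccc
NRARP: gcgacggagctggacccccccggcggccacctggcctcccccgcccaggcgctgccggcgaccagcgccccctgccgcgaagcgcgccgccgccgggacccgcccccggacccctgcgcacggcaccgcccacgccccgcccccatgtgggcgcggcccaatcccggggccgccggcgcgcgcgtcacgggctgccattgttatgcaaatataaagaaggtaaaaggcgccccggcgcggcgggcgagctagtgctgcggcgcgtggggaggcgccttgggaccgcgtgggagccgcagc

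The HES1 window held 2 copies of the core, both on the gene's strand, with first bases at positions -84 and -70 from the start site. The HEY2 window also held 2, in opposite orientations, at -213 and -3. The NRARP window held 0. Over the 13 windows of the 8 genes, 7 held the core, which covered HES4, HEYL, HES1, HEY2, LFNG and a start site of RBPJ itself; 24% of all 35116 windows of this length held it, and 3.8% held 2 or more copies. The N-box CACNAG, a sequence bound by HES proteins, was found 4 times in the HES1 window and in 4 of the 13 windows, against 38% of all windows. The E-box CACGTG was found in 0 of the 13 (7.26% of all), and the GFI1 core AATCAC in 1, a start site of RBPJ (10.2% of all). All motifs were searched on both strands, and 0 matches of different motifs overlapped. Such matches describe letters in a short window and are not evidence of binding.

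Library totals were 146584 and 2332621 counts in GFI1-KO replicates 1 and 2, and 2239214 and 2417410 counts in WT replicates 1 and 2. A floor of 3 counts was 19.9 CPM (counts scaled to a common library total with TMM factors) in GFI1-KO replicate 1 and 1.26 to 1.34 CPM in the other libraries, so values from the shallow library are coarse. GFI1 itself was at 19.9 and 19.6 CPM in GFI1-KO libraries, on 3 and 44 counts, against 58.5 and 58.3 CPM in WT libraries. GATA2, the gene of the reporter, was at 139 and 124 CPM against 293 and 252 CPM in WT. All 10 endothelial markers were detected, and their summed level was 8095 and 9266 CPM in GFI1-KO libraries, against 6031 and 6340 CPM in WT libraries. Arterial markers (9 genes, DLL4 among them) summed to 2299 and 1590 CPM against 1291 and 1087 CPM, and venous markers (5 genes) to 2809 and 4122 CPM against 3436 and 3322 CPM, in the same order. Markers of blood (10 genes; PTPRC, HBG1 and HBE1 at 0 in all 4 libraries) summed to 26.5 and 16.02 CPM in GFI1-KO libraries and to 42.9 and 56.6 CPM in WT libraries. Mesenchymal markers (7 genes, 0 of them at 0 in all libraries) summed to 159 and 164 CPM against 193 and 167 CPM in WT.

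HEY1 was the member that rose in GFI1-KO cells. Among the 9 members with enough counts to be tested, 1 rose, 0 fell and 8 did not pass an edgeR adjusted p of 0.05, where 0.958% of all 11380 tested genes were called in either direction and 0.773% were called higher. The median log2 fold change (GFI1-KO over WT) of the 9 was 0.40, beside -0.02 over all tested genes. The targets HEY1 and NRARP and the fringe LFNG had both GFI1-KO libraries above both WT libraries, which held for 18.6% of all tested genes. RFNG had both below, which held for 22.7%, and the other 5 tested members overlapped. Libraries of the genotypes did not overlap, in either direction, for 41.2% of all tested genes. The count of members called was 1 with DESeq2, where 0.409% of the 8070 genes given an adjusted p were called. It was also 1 with the newer quasi-likelihood dispersion (0.51% of all tested genes) and with upper-quartile scaling (0.51%), and 2 with limma-voom (1.16%). With a GFI1-KO library left out it was 2 (without replicate 1, 3.18%) or 1, a fall in HES1 (without replicate 2, 2.36%). With a WT library left out it was 0 (without replicate 1, 0.534%) or 2 (without replicate 2, 0.833%). HEYL, the remaining member of the HEY family, had too few counts to be tested. In a bulk library, more cells with a transcript and more transcript per cell cannot be told apart.

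**Figure D1:**
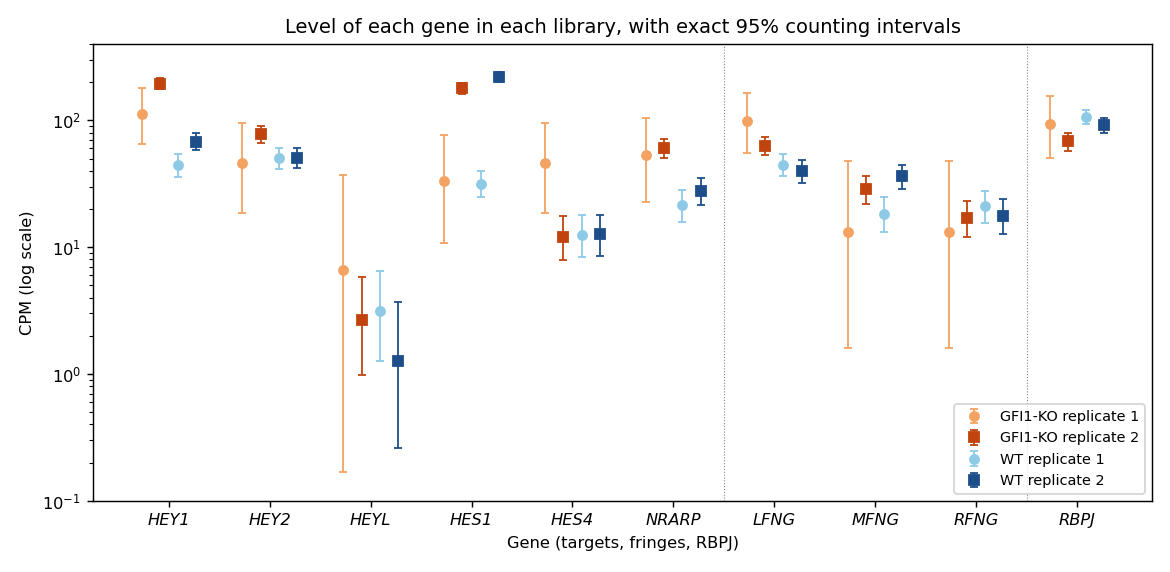
Level of each gene in CPM (log axis) in the 4 libraries; circles are replicates 1, squares replicates 2, orange GFI1-KO, blue WT, and bars exact 95% Poisson intervals that cover counting error only. HEY1, NRARP and LFNG lie higher in both GFI1-KO libraries than in both WT libraries, while HES1 is near 32 to 33 CPM in both replicates 1 and at 179 and 220 CPM in both replicates 2.

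HEY1 (ENSG00000164683; chromosome 8, 79764010 to 79767863, minus strand, GRCh38), a repressor that marks arterial endothelium, was at 113 and 195 CPM in GFI1-KO libraries, on 17 and 438 counts. In WT libraries it was at 44.2 and 68.0 CPM, on 99 and 162 counts. The groups did not overlap, although the counting interval of the shallow library, 65.6 to 180 CPM, reached into that of WT replicate 2, 57.9 to 79.3 CPM. The log2 fold change was 1.59 (SE 0.28, edgeR adjusted p = 0.0114), with a 95% interval of 0.99 to 2.20. The call was lost without WT replicate 1 (log2 fold change 1.29, edgeR adjusted p = 0.138) and without GFI1-KO replicate 2 (1.01, adjusted p = 0.224). Without the shallow GFI1-KO replicate 1 the fold change was 1.79 (adjusted p = 1.93e-09). Endothelial and arterial marker sums were also higher in both GFI1-KO libraries, as given above. Of the endothelial markers 2 were called higher (CD34 and EMCN) and 0 lower, and of the arterial markers also 2 (EFNB2 and DLL4) and 0. Over all tested genes 0.773% were called higher and 0.185% lower. DLL4 is also among the pathway genes counted below. Not every marker followed its sum. PECAM1 was at 345 and 324 CPM in GFI1-KO libraries against 443 and 388 CPM in WT. The arterial GJA5 was at 72.9 and 93.5 CPM against 238 and 157 CPM. KDR alone held 3703 and 4970 CPM of the endothelial sum in GFI1-KO libraries, and 2995 and 3285 CPM of it in WT libraries. The part of these markers in the HEY1 difference was not tested.

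HEY2 (ENSG00000135547; chromosome 6, 125747664 to 125761269, plus strand), the close relative of HEY1 with a known place in arterial specification, was at 46.4 and 77.5 CPM in GFI1-KO libraries and at 50.5 and 50.8 CPM in WT libraries. The shallow GFI1-KO library fell just below both WT libraries and the deep one above them, so the groups overlapped. The log2 fold change was 0.49 (SE 0.26, edgeR adjusted p = 0.635; 95% interval -0.07 to 1.05), and it was 0.61 without GFI1-KO replicate 1 and -0.12 without GFI1-KO replicate 2. HEYL (ENSG00000163909; chromosome 1, 39624153 to 39639945, minus strand) had 1 and 6 counts in GFI1-KO libraries and 7 and 3 counts in WT libraries. Pooled within genotype, its ratio of GFI1-KO to WT was 1.35, with an exact 95% interval of 0.436 to 3.93, so a change of either sign was not detectable at this depth.

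Within the HEY family, HEY1 took a larger share of the counts in both GFI1-KO libraries than in both WT libraries. HEY1 made up 68.0% of the family's 25 counts in GFI1-KO replicate 1 (exact 95% interval 46.5% to 85.0%) and 70.9% of 618 counts in GFI1-KO replicate 2 (67.1% to 74.4%). In WT libraries it made up 45.2% of 219 counts (38.5% to 52.1%) and 56.6% of 286 counts (50.7% to 62.5%). The intervals of GFI1-KO replicate 2 and of both WT libraries did not overlap, while that of the shallow library overlapped those of the other 3. HEY2 was the most counted of the family in WT replicate 1, at 51.6%, and HEY1 in the other 3 libraries. These shares need no scaling between libraries, and their difference between genotypes was not tested.

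**Figure D2:**
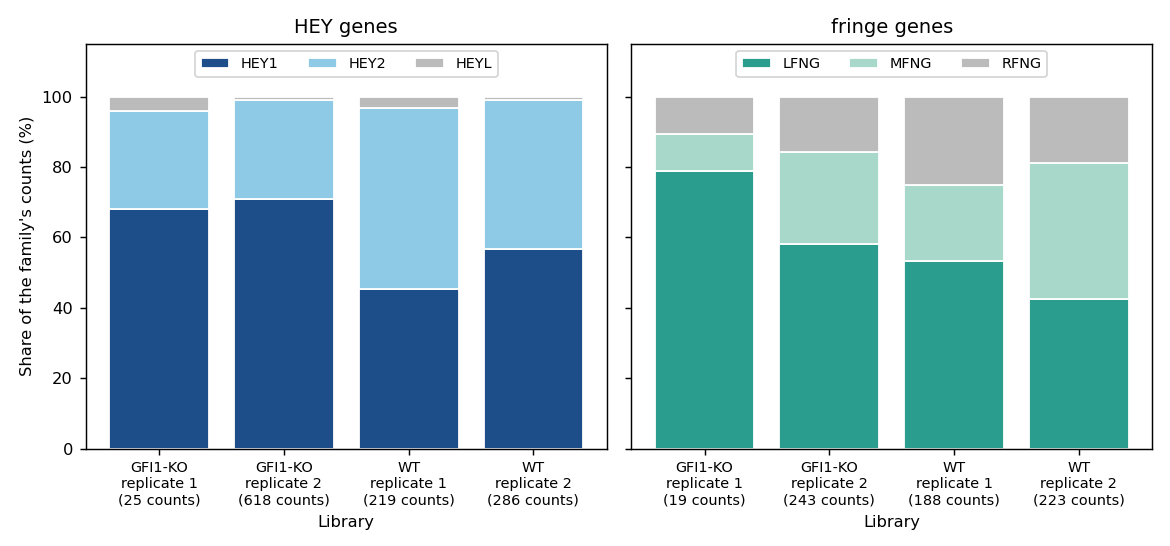
Share of each family's counts (%) taken by each HEY gene (left) and each fringe gene (right) in every library, with the family's counts under the bars. HEY1 takes 68.0% and 70.9% in GFI1-KO libraries and 45.2% and 56.6% in WT libraries; LFNG takes 79.0% and 58.0%, and 53.2% and 42.6%, in the same order.

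NRARP (ENSG00000198435; chromosome 9, 137300482 to 137302251, minus strand) was at 53.0 and 60.5 CPM in GFI1-KO libraries, on 8 and 136 counts, and at 21.4 and 27.7 CPM in WT libraries, on 48 and 66 counts. The groups did not overlap, and the GFI1-KO libraries were close to each other, with 8 counts behind the shallow value. The counting interval of that shallow library, 22.9 to 104 CPM, reached into those of both WT libraries. These were 15.8 to 28.4 CPM in WT replicate 1 and 21.4 to 35.2 CPM in WT replicate 2. The log2 fold change was 1.26 (SE 0.30, edgeR adjusted p = 0.055; 95% interval 0.63 to 1.89), just short of the threshold. It passed with limma-voom (adjusted p = 0.0389) and without GFI1-KO replicate 1 (edgeR adjusted p = 0.00134), and did not with DESeq2 (adjusted p = 0.817). The fold change stayed between 1.08 and 1.46 in the fits that left out 1 library.

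HES1 (ENSG00000114315; chromosome 3, 194136145 to 194138732, plus strand), the Notch target known to oscillate through repression of its own promoter, did not separate by genotype. It was at 33.1 and 179 CPM in GFI1-KO libraries, on 5 and 402 counts, and at 31.7 and 220 CPM in WT libraries, on 71 and 524 counts. In each genotype replicate 1 was low and replicate 2 was high, with counting intervals that did not overlap (10.8 to 77.3 against 162 to 197 CPM in GFI1-KO; 24.8 to 40.0 against 202 to 240 CPM in WT). Between the WT libraries alone the ratio of replicate 1 to replicate 2 was 0.144 (exact 95% interval 0.111 to 0.185). The log2 fold change between genotypes was 0.13 (SE 0.58, edgeR adjusted p = 0.984), with a 95% interval of -1.09 to 1.35 that does not exclude a doubling or a halving. Which libraries entered the fit decided its sign: without WT replicate 2 the value was 2.03 (adjusted p = 0.00139), and without GFI1-KO replicate 2 it was -1.92 (adjusted p = 0.029).

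HES4 (ENSG00000188290; chromosome 1, 998962 to 1000172, minus strand), a HES1 relative that mice lack, was at 46.4 and 12.0 CPM in GFI1-KO libraries, on 7 and 27 counts, and at 12.5 and 12.6 CPM in WT libraries. The 3 deep libraries lay together and the shallow one stood above them. The log2 fold change was 0.40 (SE 0.52, edgeR adjusted p = 0.924; 95% interval -0.70 to 1.49), and it was -0.06 without GFI1-KO replicate 1. Summed over the 6 targets, the level was 298 and 527 CPM in GFI1-KO libraries and 163 and 380 CPM in WT libraries. These sums overlapped, with HES1 at 220 of the 380 CPM in WT replicate 2.

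**Figure D3:**
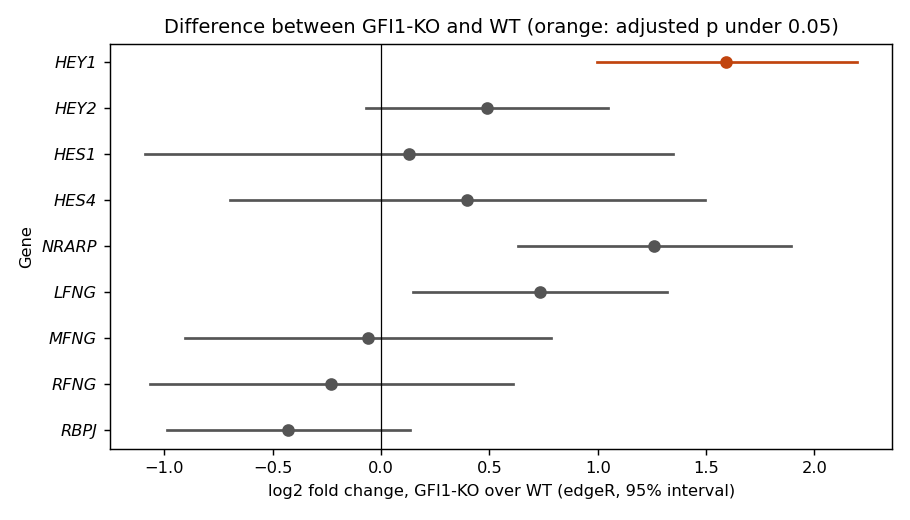
Log2 fold change, GFI1-KO over WT, for the 9 tested genes (points) with 95% intervals from the edgeR fit (lines); orange marks the gene with an adjusted p under 0.05. HEY1 at 1.59 passed, NRARP at 1.26 fell just short, and the widest interval, -1.09 to 1.35, belongs to HES1.

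Of the fringes, LFNG had both GFI1-KO libraries above both WT libraries, RFNG had both below, and MFNG overlapped. LFNG (ENSG00000106003; chromosome 7, 2512529 to 2529177, plus strand), the fringe best known from somite segmentation, was at 99.4 and 62.8 CPM in GFI1-KO libraries, on 15 and 141 counts. In WT libraries it was at 44.7 and 39.9 CPM, on 100 and 95 counts. Both GFI1-KO values were above both WT values, and the log2 fold change was 0.73 (SE 0.28, edgeR adjusted p = 0.331; 95% interval 0.15 to 1.32), which did not pass over all genes. Without the shallow library the fold change was 0.57 (adjusted p = 0.41).

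MFNG (ENSG00000100060; chromosome 22, 37469063 to 37486401, minus strand), the manic fringe, was at 13.2 and 28.5 CPM in GFI1-KO libraries, on 2 and 64 counts, and at 18.3 and 36.1 CPM in WT libraries. Replicate 2 was the higher one in both genotypes, and the groups overlapped. Its log2 fold change was -0.06 (SE 0.40, edgeR adjusted p = 0.995; 95% interval -0.90 to 0.79). RFNG (ENSG00000169733; chromosome 17, 82047902 to 82051831, minus strand), the radical fringe, was at 13.2 and 16.9 CPM in GFI1-KO libraries, on 2 and 38 counts, and at 21.0 and 17.6 CPM in WT libraries. Its GFI1-KO values were below its WT values by less than the counting intervals, and the log2 fold change was -0.23 (SE 0.40, edgeR adjusted p = 0.952; 95% interval -1.07 to 0.61). RFNG shares 835 exonic bases with GPS1 on the opposite strand, and reads there cannot be assigned to either gene if the counting did not use strand.

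By count, LFNG was the leading fringe in all 4 libraries. It took 79.0% of 19 fringe counts in GFI1-KO replicate 1 (exact 95% interval 54.4% to 93.9%) and 58.0% of 243 in GFI1-KO replicate 2 (51.5% to 64.3%). In WT libraries it took 53.2% of 188 (45.8% to 60.5%) and 42.6% of 223 (36.0% to 49.4%). The interval of WT replicate 1 overlapped those of both GFI1-KO libraries. Divided by exonic length, MFNG matched LFNG in WT replicate 2, at 42.2% against 41.5%, so LFNG did not lead there on that scale.

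RBPJ (ENSG00000168214; chromosome 4, 26163455 to 26435131, plus strand), which represses targets in the absence of cleaved Notch and activates them with it, was at 92.7 and 68.1 CPM in GFI1-KO libraries, on 14 and 153 counts. In WT libraries it was at 106 and 91.9 CPM, on 237 and 219 counts. GFI1-KO replicate 1 lay between the WT libraries, so the groups overlapped. The log2 fold change was -0.43 (SE 0.27, edgeR adjusted p = 0.726; 95% interval -0.99 to 0.13), and -0.54 without the shallow library (adjusted p = 0.472).

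Ordered by level per kilobase of exonic sequence (CPM per kilobase), HES1 led the set in each genotype, with means of 51.4 in GFI1-KO and 61.0 in WT, although its libraries ran from 16.1 to 86.8 and from 15.4 to 107. In GFI1-KO cells HEY1 (47.6), NRARP (32.1), HES4 (26.1), LFNG (23.7) and HEY2 (22.6) followed. The place of HES4 rests on 7 counts in the shallow library, where it was at 41.5; in GFI1-KO replicate 2 it was at 10.8, below LFNG at 18.4 and HEY2 at 28.3. In WT cells the order was HEY2 (18.5), HEY1 (17.4), NRARP (13.9), LFNG (12.4) and HES4 (11.2). Given the spread between libraries, HES1 could not be placed above HEY1 in GFI1-KO or above HEY2 in WT. In GFI1-KO replicate 1, HES1 at 16.1 was below HEY1, NRARP, HES4, LFNG and HEY2. In WT replicate 1, HES1 at 15.4 was below HEY2 at 18.4. Nor could HEY1 be set apart from HEY2 in WT, where HEY1 was at 13.7 and 21.0 and HEY2 at 18.4 and 18.5 CPM per kilobase. By mean, RBPJ, MFNG and RFNG were lower in each genotype, at 8.69, 6.86 and 3.90 in GFI1-KO and 10.7, 8.94 and 4.99 in WT. HEYL was lowest at 1.27 and 0.599. The WT libraries did not all keep that order. In WT replicate 1, RBPJ at 11.4 was above HES4 at 11.2. In WT replicate 2, MFNG at 11.9 was above LFNG at 11.7 and HES4 at 11.3. The length used is that of all annotated exons, 9253 bases for RBPJ, so genes with many unused exons are understated.

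Among 79 other genes of the pathway, 69 were tested: 2 rose, 0 fell and 67 did not pass, against 0.958% called over all genes, and their median log2 fold change was 0.09. Both genes that rose act at the cell surface. NOTCH4, a receptor expressed largely in endothelium, was at 152 and 90.8 CPM in GFI1-KO libraries and at 39.7 and 34.0 CPM in WT libraries, and its log2 fold change was 1.52 (SE 0.28, edgeR adjusted p = 0.0154). DLL4, the arterial and tip-cell ligand, was at 345 and 212 CPM in GFI1-KO libraries and at 97.3 and 124 CPM in WT libraries, and its log2 fold change was 1.22 (SE 0.26, edgeR adjusted p = 0.0372). Both had their higher GFI1-KO value in the shallow replicate 1, whereas HEY1 had its higher value in replicate 2. NOTCH4 shares 98 exonic bases with GPSM3. Leaving out WT replicate 2 ended the NOTCH4 call (adjusted p = 0.0742). The DLL4 call ended when WT replicate 1 was left out (adjusted p = 0.272), with DESeq2 (adjusted p = 0.0536), with the newer dispersion (adjusted p = 0.0781) and with upper-quartile scaling (adjusted p = 0.0628). Leaving out the shallow library kept both calls, with fold changes of 1.3 and 0.94 on the log2 scale.

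The other steps of the pathway, and the other receptors and ligands, held 0 calls by edgeR, DESeq2 or limma-voom, with 4 genes at an unadjusted edgeR p under 0.05. NOTCH1, the main endothelial receptor, was at 729 and 624 CPM in GFI1-KO libraries and at 494 and 545 CPM in WT libraries (log2 fold change 0.36, edgeR adjusted p = 0.682), and NOTCH2 had 0.63 (adjusted p = 0.616). The ligand gene JAG2 had 0.33 (adjusted p = 0.82). Of 9 protease genes, APH1B, a subunit of gamma-secretase, had 1.38 (adjusted p = 0.39) on 1 and 27 counts in GFI1-KO against 12 and 8 in WT, and ADAM10, the protease of the first cleavage, had 0.44 (adjusted p = 0.566). Of 7 coactivator genes, MAML2 of the Mastermind-like family had 0.83 (adjusted p = 0.312) and the acetyltransferase gene KAT2A had -0.58 (adjusted p = 0.506). Over the 9 proteases 1 had an unadjusted p under 0.05, and over the 7 coactivators 2 had. In the receptor glycosylation group of 4, the O-glucosyltransferase gene POGLUT1 had -0.38 (adjusted p = 0.878) and EOGT had -0.13 (adjusted p = 0.952).

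Partners of the repressors were likewise short of the threshold. Of 12 RBPJ corepressor genes, the histone demethylase gene KDM5A had a log2 fold change of 0.50 (edgeR adjusted p = 0.576) and the deacetylase gene HDAC1 of 0.24 (adjusted p = 0.885). A group of 8 genes held corepressors of HES and HEY proteins and repressors listed with them. In it TLE1, of the Groucho family, had 0.99 (adjusted p = 0.434), at 66.2 and 26.7 CPM in GFI1-KO libraries and 13.8 and 19.7 CPM in WT libraries. The repressor gene BCL6 had 1.04 (adjusted p = 0.673), on 1 and 22 counts in GFI1-KO against 14 and 7 in WT. Of 7 dimer partners and inhibitors, TCF4 had 0.47 (adjusted p = 0.618) and ID3 had 0.41 (adjusted p = 0.653). Among 11 tested ubiquitin and endocytosis genes, DTX4 had 0.49 (adjusted p = 0.807) and DTX2 0.56 (adjusted p = 0.815). Of 8 other HES-related genes, 2 had enough counts to be tested, HES6 and BHLHE40. HES6 had 0 and 13 counts in GFI1-KO libraries and 23 and 22 counts in WT libraries (-0.88, edgeR adjusted p = 0.758). BHLHE40 was at 0 and 34.7 CPM in GFI1-KO libraries and at 14.3 and 39.9 CPM in WT libraries (0.11, edgeR adjusted p = 0.987). HES3 and HELT had 0 counts in all 4 libraries, against floors of at most 1.34 CPM in the deep libraries and of 19.9 CPM in the shallow one.

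**Figure D4:**
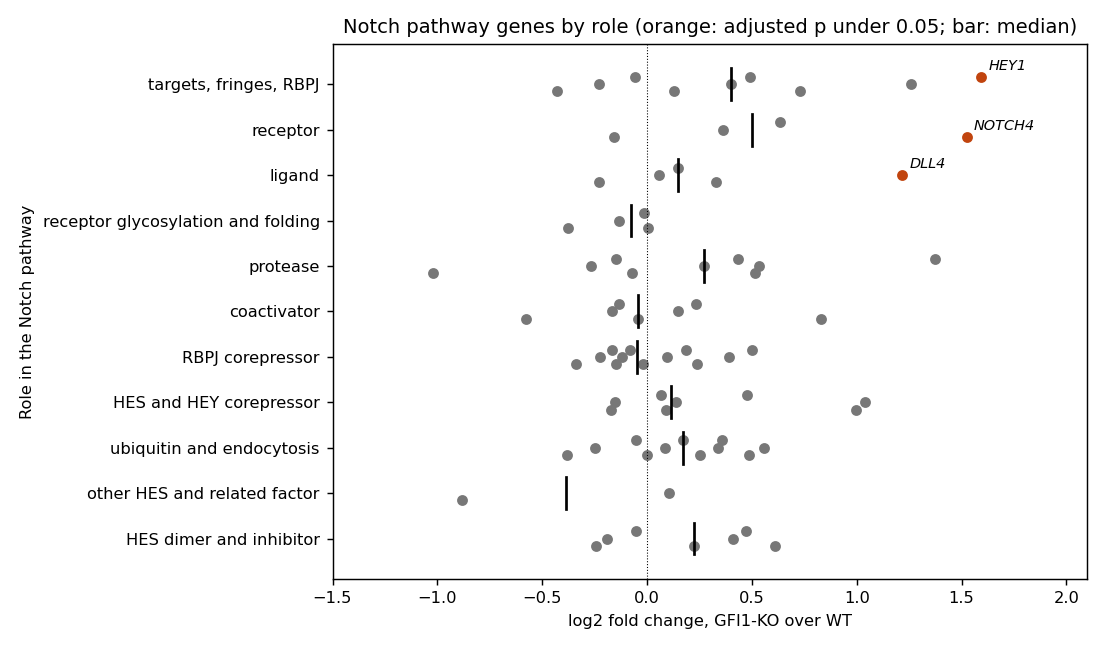
Log2 fold change, GFI1-KO over WT, of the 9 tested targets, fringes and RBPJ (top row) and of 69 tested genes of the Notch pathway grouped by role; each point is a gene, black bars are medians, and orange marks an edgeR adjusted p under 0.05. HEY1, NOTCH4 and DLL4 are the genes past the threshold.

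The genes whose levels followed HEY1 most closely over the 4 libraries were DCBLD1, SELE, FAM184A, AKAP12 and S1PR3. Likeness was the distance between log2 CPM values centred on each gene's mean, among the 7995 genes averaging at least 20 CPM, and it ran from 0.36 for DCBLD1 to 0.45 for S1PR3. SELE encodes the endothelial adhesion molecule E-selectin, and S1PR3 a receptor for sphingosine-1-phosphate. DCBLD1 was at 159 and 316 CPM in GFI1-KO libraries and at 89.3 and 112 CPM in WT libraries, which like HEY1 is higher in replicate 2 of each genotype. Of the other members, NRARP was nearest, at rank 11 with a distance of 0.516, while HES1 was at rank 7601 with 2.44. With 4 libraries such likeness is a description.

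Genes that differed between replicates in the same direction in both genotypes put HES1 in other company. Log2 ratios of replicate 2 to replicate 1 (1 CPM added) covered the 8004 genes averaging at least 20 CPM, tested or not. For HES1 the ratio was 2.40 in GFI1-KO and 2.76 in WT. The WT ratio was the highest of all these genes, while the GFI1-KO ratio ranked 87. By the smaller of both ratios HES1 ranked 2, after CD69 and before CYR61, FOSB, NR4A1 and DUSP1. This ranking was made after the HES1 values were seen. In GFI1-KO replicate 1 these 6 genes had from 1 count (CD69) to 6 counts (NR4A1 and DUSP1), so their GFI1-KO ratios are coarse. FOSB, NR4A1, CYR61 and DUSP1 are known as immediate early genes, transcribed within minutes of a stimulus, and CD69 is an early activation marker of leukocytes. FOSB was at 26.5 and 105 CPM in GFI1-KO libraries and at 30.8 and 110 CPM in WT libraries, and NR4A1 at 39.7 and 135 CPM against 21.4 and 109 CPM. Ratios of at least 1 in both genotypes were found for 25 of the 8004 genes (0.312%). MFNG ranked 28 and HEY1 125 by the same measure, while RBPJ, LFNG and HES4 had ratios of -0.44, -0.65 and -1.86 in GFI1-KO. The part of this replicate difference in any comparison of genotypes was not tested.

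**Figure D5:**
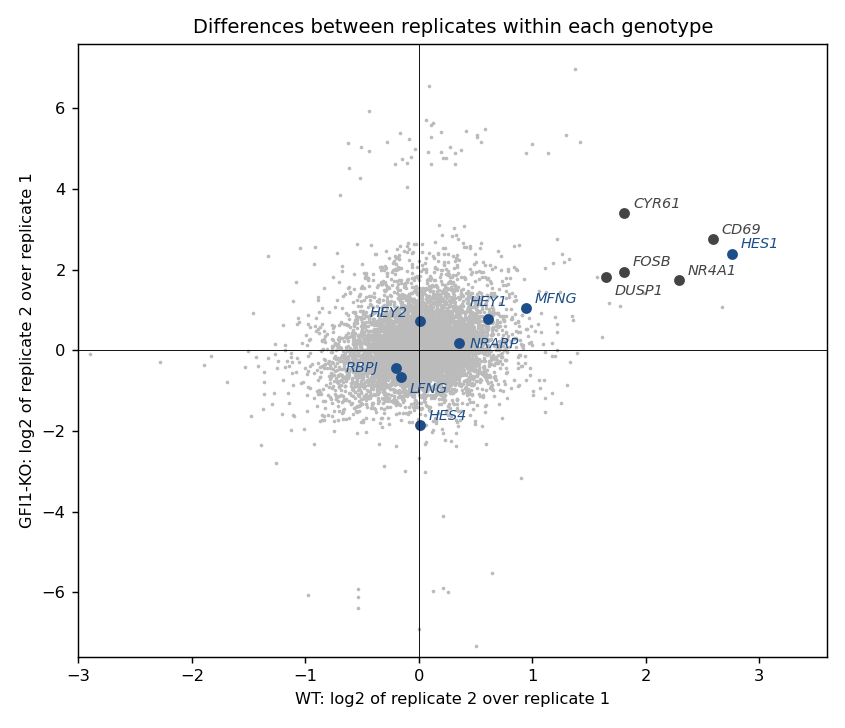
Log2 ratio of replicate 2 to replicate 1 within GFI1-KO (vertical) and within WT (horizontal) for 8004 genes averaging at least 20 CPM (grey); blue points are 8 of the genes described here and dark points the other genes among the 6 highest in both. HES1, at 2.40 and 2.76, lies with CD69, CYR61, FOSB, NR4A1 and DUSP1, away from HEY1, NRARP and RBPJ.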

How the data were processed

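The authors deposited 1 table of raw read counts per gene, with a column for each library. The submitters' processing notes list the tools DESeq (1.18.1), HISAT2 (2.0.4), HTSeq (0.6.0) and SAMtools (1.3.1) and the builds hg38 and GRCh38, without stating which step each served; for annotation, read filters and strand setting the sources used here give nothing. Symbols, coordinates and exonic lengths came from GENCODE release 29 on GRCh38, where 19902 of 19912 identifiers were found.

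Counts were tested with edgeR 4.0.16 in R 4.3.3: filterByExpr (minimum count 10, minimum total 15), TMM scaling, and glmQLFit in its earlier quasi-likelihood form with glmQLFTest, genotype as the only term. A gene was called at an adjusted p (Benjamini-Hochberg over 11380 genes) under 0.05. Log2 fold changes use a prior count of 0.125. The SE equals the size of the fold change fitted without that prior, in log2, divided by the root of F, and 95% intervals are around the same fit. CPM divides counts by the TMM-adjusted total over tested genes. Count and share intervals are exact at 95% and cover counting error only, since reads carry no molecular identifiers. Alternatives were DESeq2 1.42.0, limma-voom (limma 3.58.1), the newer quasi-likelihood form, other scalings and filters, a replicate block, and each library left out in turn. Scripts were tested on simulated data.

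The rule for named genes covered all 10 members, called pathway genes, up to 2 others per role with the smallest adjusted p, and the 5 genes most like HEY1. Members and lists were chosen with earlier results of these data known. Promoter windows came from RefSeq (GRCh38.p14).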

Additional observations from a re-analysis of the deposited data

How the results depend on the processing

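The count of members called was 1. It was 2 (HEY1 and NRARP) with limma-voom (1.16% of all tested genes called), without the low-count filter (1.96% of 15579) and with the replicate block (2.87%). The main fit called 0.958%. The count stayed at 1, HEY1, with DESeq2 (adjusted p = 0.0499 for HEY1, 0.409% of 8070 genes) and the newer dispersion (0.51%). It also did so with RLE scaling (0.905%), upper-quartile scaling (0.51%), library totals alone (0.633%) and a 5 CPM minimum mean (0.452%). The same shares stand beside the pathway counts below, and shares with a library left out are given above. Without WT replicate 2 the calls were HEY1 and HES1, without GFI1-KO replicate 2 HES1 as a lower gene, without GFI1-KO replicate 1 HEY1 and NRARP, and without WT replicate 1 there was 0. Other pathway genes called numbered 2; the count was 1, NOTCH4, with DESeq2, the newer dispersion, upper-quartile scaling, library totals alone and a 5 CPM minimum mean, and 1 to 4 when a library was left out, with NOTCH2 and TLE1 added without GFI1-KO replicate 2. Over all genes 109 were called; the count was 33 with DESeq2, 58 with the newer dispersion, 58 with upper-quartile scaling, 72 with library totals alone, 305 without the low-count filter (70.8% higher, against 80.7%), 50 with a 5 CPM minimum mean, and 62 (without WT replicate 1) to 373 (without GFI1-KO replicate 1) when a library was left out.

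Log2 fold changes changed sign for HES1 with DESeq2 (-0.23) and for MFNG with limma-voom (0.039). They also did so when a library was left out. HES1 was at -0.74 without WT replicate 1 and ranged from -1.92 (without GFI1-KO replicate 2) to 2.03 (without WT replicate 2). HEY2 ranged from -0.12 (without GFI1-KO replicate 2) to 0.61, HES4 from -0.062 (without GFI1-KO replicate 1) to 1.89, and MFNG from -1.03 to 0.46 (without WT replicate 2), with 0.061 when GFI1-KO replicate 1 was left out. The causes were not tested. DESeq2 gave no adjusted p for RFNG. Promoters with an RBPJ core numbered 6 genes of 8 with the whole window and 6 with its upstream part.

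Both genotypes carry replicates numbered 1 and 2, and no label ties a number to a common culture. Deviations of same-numbered libraries had a correlation of 0.116 across 11380 genes, which are not independent replicates, and of 0.192 across the 7995 tested genes averaging at least 20 CPM. With the replicate block 327 genes were called, 2.87% of all tested genes against 0.958% without it. The members called with the block numbered 2 (NRARP edgeR adjusted p = 0.0316), and HES1 changed sign (-0.25).

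Depth limits the set most in GFI1-KO replicate 1, where the 10 members rest on 1 to 17 counts each.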
